A study of Mus musculus with 12 samples.

Results

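Fasting was followed in livers of mice labelled NTS KO, a label for a whole-body deletion of the gut and brain peptide neurotensin (Nts-/-, bred from Nts+/- parents). The counts of Nts itself go against this label, as given below. 3 livers of mice fasted for 22 h (mice 284, 290 and 295) were set against 3 livers of mice fed ad libitum (mice 277, 303 and 319). These 6 libraries, 6 of the 12 in the series, were chosen by their genotype and feeding labels. The other 6 came from littermates labelled NTS WT, 3 fed and 3 fasted in the same way, and all 12 animals were females of 4 months on normal chow with the same batch label. Of the 48795 genes in the count table, 13812 had enough counts to be tested, and they are described here by pathway.

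A fasted liver exports fuel. It breaks down glycogen, makes glucose from lactate, glycerol and amino acids, oxidizes the fatty acids that adipose tissue releases and turns part of them into ketone bodies. The nuclear receptor PPARα drives most fatty acid oxidation genes under fasting, whereas insulin and the SREBP factors drive the genes of fatty acid and cholesterol synthesis in the fed state.

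The genotype labels were checked first against the gene they name, whose counts went against them. Nts (neurotensin, 10:102481760-102490418 in GRCm38) had 46, 40 and 15 counts in the fed libraries labelled NTS KO and 12, 4 and 18 counts in the fasted ones. All 6 libraries labelled NTS WT had 0 counts, so the gene was seen only in libraries labelled as lacking it. With 0 counts, up to 3 counts remain possible in each of these, a level between 0.0833 and 0.136 CPM, where CPM is a count scaled to the size of its library. NTS KO and NTS WT are used below as labels only, and every direction between them rests on these labels. An exchange of labels and a knockout allele that is still transcribed cannot be told apart with these counts. The contrast of fasted with fed libraries is made within 1 label. Genes below are given in CPM after TMM scaling, except cell type markers given beside their sums. On this scale Nts was at 1.22, 1.45 and 0.604 in the fed and 0.550, 0.173 and 0.425 in the fasted mice. Its fasted values lay below its fed ones, and the change did not pass the test (log2 change -1.50 ± 0.51 (SE), adjusted p = 0.0740). Nts passed the test without mouse 319 or with scaling by library totals (adjusted p = 0.0435 to 0.0455). The table counts whole genes and does not show which exons were read. Here and below, 3 values in a row are those of mice 277, 303 and 319 (fed) and of mice 284, 290 and 295 (fasted), and every log2 change and adjusted p is from the edgeR test across all genes.

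The 6 libraries held 23048848 to 45273069 counts, so that a floor of 3 counts stood at 0.0663 to 0.130 CPM. Log2 CPM over all tested genes correlated between fed pairs at r = 0.969 to 0.983, between fasted pairs at 0.980 to 0.984 and between fed and fasted livers at 0.948 to 0.962. These are correlations across genes, which are not independent replicates. Hepatocyte markers made up 134314 to 149211 CPM in the fed and 129167 to 138036 CPM in the fasted livers, led by Alb. Apoa1 and Cyp2e1 were called higher and Ttr and Trf lower among these 8 markers, so the sum joins opposite fasting changes. Most markers of neighbouring tissues were at or near 0 CPM. Of 7 pancreas markers Cela1 was tested and called lower and 6 were at 0 throughout, of 8 intestine markers Lgals4 was tested and not called and 6 were at 0, and of 6 muscle markers 4 were at 0. Of 6 adipocyte markers Lep, Cfd and Retn were at 0, and Car3, which liver makes itself, was not called. Lgals4 passed the test without mouse 319 or in DESeq2 (adjusted p = 0.0185 to 0.0213), and Car3 in DESeq2 or with scaling by library totals (adjusted p = 0.00494 to 0.0478). Of 5 erythroid markers Alas2 was called lower, and of 7 neutrophil markers none was. In CPM of library totals, the summed markers of stellate cells, sinusoidal endothelium and cholangiocytes were lower in every fasted than in every fed liver. They are given beside the matrix genes below. TMM factors also did not overlap, at 1.03 to 1.102 in fed and 0.935 to 0.978 in fasted livers, so TMM scaling raises fasted values relative to fed ones. After it, the stellate sum of fasted mouse 284 lies above that of fed mouse 319, and the stellate groups overlap. In tissue RNA, fewer cells of a type and less RNA per cell cannot be told apart.

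Fasted and fed livers differed in 2326 genes. In the edgeR test with Benjamini-Hochberg adjusted p under 0.05, 1063 genes were higher in fasted livers labelled NTS KO (7.70% of genes tested) and 1263 were lower (9.14%). Changes of at least 2-fold were seen for 334 of the higher and 581 of the lower genes, and changes of at least 8-fold for 42 and 56. The median change was 0.73 on the log2 scale among the higher genes and -0.95 among the lower ones, against -0.01 over all genes tested. Genes called higher took 11.5% to 12.1% of all counts in the fed libraries and 21.8% to 23.5% in the fasted ones, and genes called lower took 12.1% to 13.3% and 5.15% to 5.72%. Since these genes were chosen on the same libraries, the shares are a description. In 2365 genes (17.1% of those tested) every fasted library lay above every fed library, and in 2498 (18.1%) every fasted library lay below. Among the 2326 called genes, 43 had libraries that overlapped between the groups. The number of calls depended on single mice: it was 1358 without fed mouse 277, 1523 without fasted mouse 284 and 1365 without fasted mouse 290, and 1038 of the calls were kept in each of the 6 fits without 1 mouse. Scaling by library totals alone, an alternative added after the data had been seen, moved the median of all genes to -0.18 and the calls to 576 higher and 2171 lower.

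**Figure D1:**
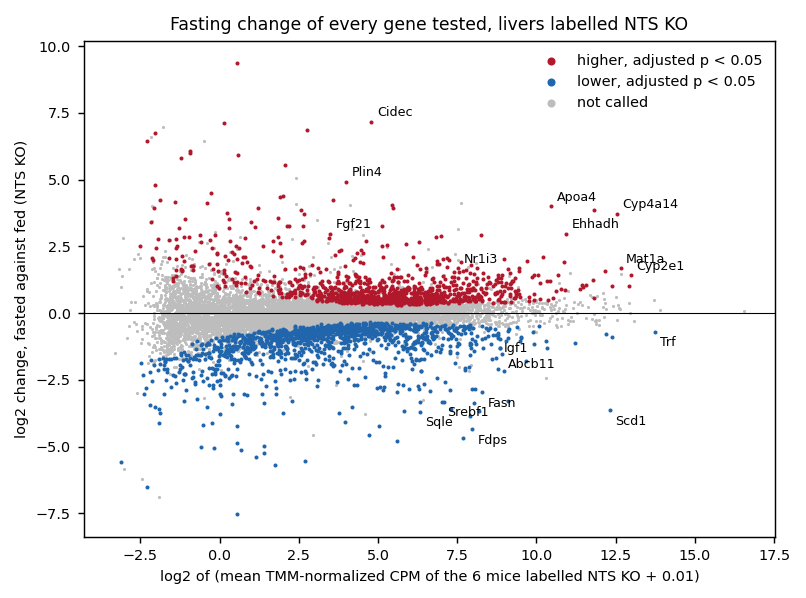
Log2 change of each of the 13812 genes tested (fasted against fed livers labelled NTS KO, vertical axis) against its mean level (log2 of CPM, horizontal axis). Red points are the 1063 genes called higher and blue points the 1263 called lower at adjusted p under 0.05. Fat-handling genes such as Cidec, Cyp4a14 and Ehhadh lie at the top and sterol genes such as Fdps and Sqle at the bottom.

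The lipid droplet genes Cidec and Plin4 were among the 10 called genes with the largest relative rises. Cidec, which codes for a lipid droplet protein that enlarges droplets, was at 0.423, 0.326 and 0.363 CPM in the fed mice and at 51.2, 70.2 and 43.4 CPM in the fasted mice. The groups did not overlap, and the fitted level of fasted livers was 145-fold higher (log2 change 7.18 ± 0.52 (SE), adjusted p = 2.67e-05). Plin4, another droplet coat protein, went from 0.847, 0.579 and 1.69 to 54.1, 22.7 and 16.3 CPM, with mouse 284 the highest (log2 change 4.92 ± 0.56 (SE), adjusted p = 0.000388). Aqp4, a water channel, rose from 0.476, 0.290 and 0.282 to 5.41, 8.57 and 8.67 CPM (log2 change 4.38 ± 0.33 (SE), adjusted p = 6.6e-06). Cntnap1, a neuronal adhesion protein, rose from 1.32, 1.63 and 0.564 to 19.7, 28.2 and 20.3 CPM (log2 change 4.25 ± 0.42 (SE), adjusted p = 9.4e-05). Every fasted mouse lay above every fed mouse for these genes. Of the other genes among the 10 highest, Cgref1 had a log2 change of 5.57, Cyp4a31 of 4.07 and B930025P03Rik of 4.33. E030018B13Rik had 0 counts in all 3 fed livers and 3.34, 4.33 and 1.11 CPM in the fasted ones, at least 28.5-fold higher against a floor of 3 counts per library. Gm15441 (0.159, 0 and 0.161 CPM fed, 14.6, 18.7 and 6.64 CPM fasted) overlaps Txnip on chromosome 3, and Txnip was called higher too, so reads of the pair may not be told apart. Sult1e1, the estrogen sulfotransferase, was at 0 to 0.0724 CPM in the fed and 0.870, 5.02 and 2.91 CPM in the fasted mice (adjusted p = 0.0291). Sult1e1 lost its call without mouse 277, 303, 319, 290 or 295 or with no count filter (adjusted p = 0.0617 to 0.110).

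The largest relative falls were mostly in less abundant transcripts. A1bg, a plasma glycoprotein, fell from 223, 611 and 339 to 28.5, 7.62 and 9.90 CPM (log2 change -4.68 ± 0.82 (SE), adjusted p = 0.00608). Pnpla3, a lipid droplet lipase induced by feeding, fell from 2.99, 3.37 and 2.09 to 0.0458, 0.216 and 0.0472 CPM (log2 change -4.85 ± 1.03 (SE), adjusted p = 0.0103). Prok1, a secreted peptide, fell from 10.6, 5.90 and 3.38 to 0.137, 0.130 and 0.118 CPM and Nfe2, a blood cell transcription factor, from 2.28, 5.83 and 1.17 to 0.137, 0.130 and 0.0236 CPM. In none of these did the groups overlap. Chrna4, a nicotinic receptor subunit, was also among the 10 lowest, with 4.44, 3.04 and 1.21 CPM in fed livers and 0 to 0.0458 CPM in fasted ones. Gm13502, Serpina4-ps1, Gm37736 and C330021F23Rik had log2 changes of -5.54, -5.37, -5.23 and -4.98, sizes that depend on the prior count, since fasted libraries were at or near 0. Gm13502 lost its call without mouse 277, 303, 284, 290 or 295 or in a fit of the 6 mice labelled NTS KO alone (adjusted p = 0.0579 to 0.0830), Serpina4-ps1 without mouse 277, 284, 290 or 295 (adjusted p = 0.0626 to 0.0775), and Pnpla3 without mouse 295 (adjusted p = 0.0528).

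In absolute terms the largest rises of single called genes were those of Cyp4a14, Cyp2e1 and Mat1a. These genes were chosen after their values were seen, as those with the largest difference in mean CPM. Cyp4a14, which hydroxylates fatty acids at their end carbon, was at 909, 775 and 832 CPM in the fed and 10130.1, 11789.5 and 11209.7 CPM in the fasted mice. It gained more CPM than any other called gene and was 13.2-fold higher (log2 change 3.72 ± 0.27 (SE), adjusted p = 4.89e-06). Cyp2e1, an ethanol and ketone body oxidizing P450, rose from 5089.8, 4783 and 3244 to 12808, 10125 and 12309 CPM. Mat1a, which makes S-adenosylmethionine in liver, rose from 3143, 3438 and 2590.2 to 8742, 11338 and 9507 CPM (log2 change 1.69 ± 0.25 (SE), adjusted p = 0.000661). The largest loss was that of Scd1, the desaturase that makes oleate, from 8876, 11725 and 7744 CPM in the fed to 324, 1369.6 and 597 CPM in the fasted livers (log2 change -3.63 ± 0.73 (SE), adjusted p = 0.00967). Trf, the iron carrier transferrin, fell from 16594, 15026 and 19183 to 10693, 9346 and 11186 CPM (log2 change -0.70 ± 0.15 (SE), adjusted p = 0.00712). Ttr, the thyroxine carrier transthyretin, fell from 6487, 5528 and 8837 to 4014, 3416 and 3772 CPM (log2 change -0.90 ± 0.17 (SE), adjusted p = 0.00370). Rbp4, its partner in retinol transport, moved the other way, from 1948, 1878 and 2468 to 4998, 4480.4 and 5229.9 CPM (log2 change 1.22 ± 0.15 (SE), adjusted p = 0.000179). Near-identical family members, such as the Cyp4a, Acot, Gstm and Serpina1 genes, share reads that the authors' counting divided among them, so their separate values are uncertain.

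The 41 lists of genes with known roles covered 954 of the genes tested and 319 of the 2326 called genes, 183 higher and 136 lower. The shares of members called are to be read against 7.70% higher and 9.14% lower over all genes. Proteasome subunits, fatty acid oxidation and PPARα targets had the highest shares called higher, and cholesterol synthesis, interferon-stimulated genes and lipogenesis the highest shares called lower. Counts under each alternative were taken for every list, and those that moved by more than 1.5 times without 1 mouse are named beside the list. No test of a list as a whole was made.

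**Figure D2:**
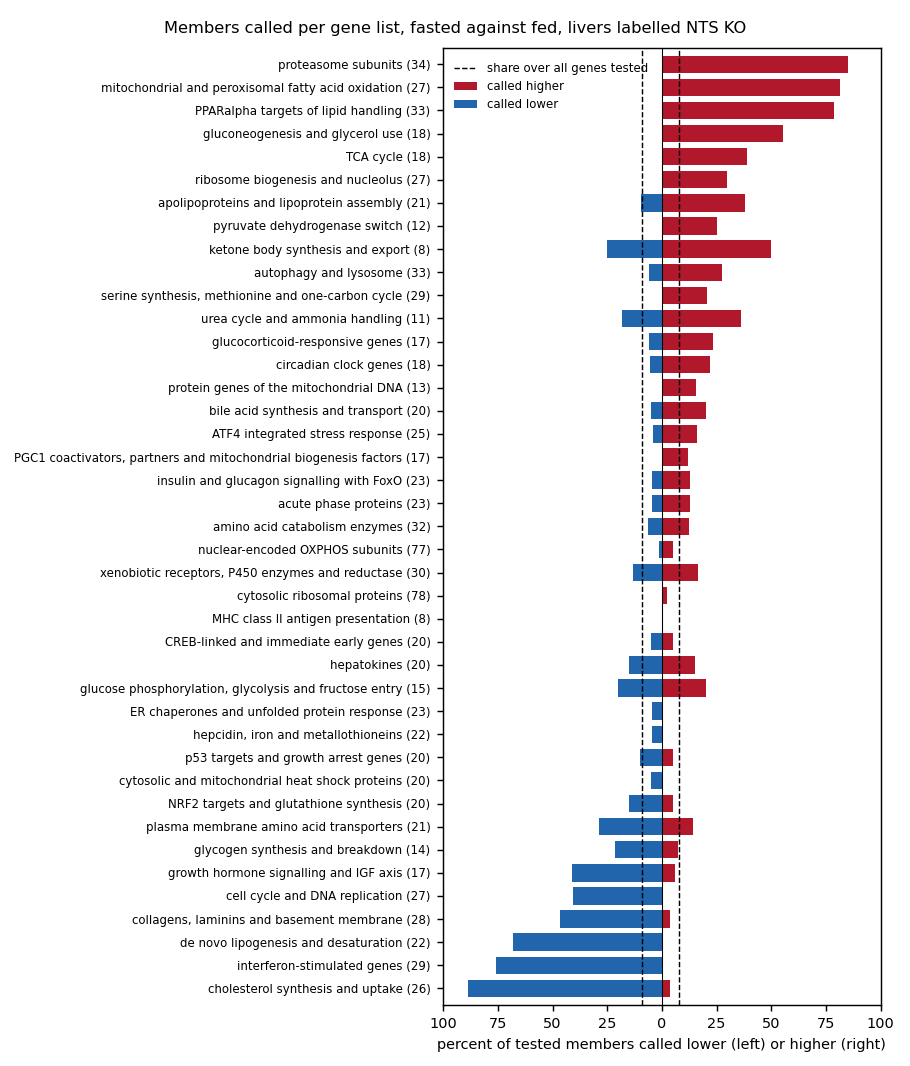
Percent of the tested members of each of the 41 lists that were called higher (red, to the right) or lower (blue, to the left) in fasted livers labelled NTS KO, with the number tested in brackets. Dashed lines mark 7.70% and 9.14%, the shares over all genes. The 34 proteasome subunits stand at the top with 29 called higher and the 26 cholesterol genes at the bottom with 23 called lower.

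Fatty acid oxidation rose as a block. Of 27 tested enzymes and carriers, 22 were called higher (81.5%) and none lower, with a median log2 change of 1.14 and all 27 positive. Cpt1a, which admits fatty acids to the mitochondrion, was at 319, 208 and 254 CPM in the fed and 714, 922 and 845 CPM in the fasted mice, without overlap (log2 change 1.67 ± 0.24 (SE), adjusted p = 0.000458). Acadm, the medium-chain dehydrogenase, went from 294, 363 and 386 to 955, 971 and 1195 CPM (log2 change 1.58 ± 0.16 (SE), adjusted p = 5.16e-05). In the peroxisome, Ehhadh, the bifunctional enzyme, went from 379.8, 443 and 498 to 3171, 5030.2 and 2178 CPM, with mouse 290 the highest and mouse 295 the lowest of the fasted livers (log2 change 2.97 ± 0.25 (SE), adjusted p = 1.43e-05). Acaa1a and Eci2 rose by 1.69 and 1.51 on the log2 scale. The calls on this list numbered 21 to 24 in the fits without 1 mouse.

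Other PPARα targets of lipid handling rose with them. Of 33 tested, 26 were called higher (78.8%) and none lower, with a median log2 change of 1.67, and all 33 were positive. Fgf21, a hormone that fasted liver secretes, was at 2.62, 0.869 and 4.15 CPM in the fed and 21.5, 18.2 and 19.9 CPM in the fasted mice (log2 change 2.97 ± 0.43 (SE), adjusted p = 0.00113). The 3 fasted livers were close together, while the fed ones ranged widely with mouse 303 the lowest. Cd36, the fatty acid translocase, went from 41.2, 87.9 and 55.6 to 252, 240.1 and 239 CPM (log2 change 1.99 ± 0.29 (SE), adjusted p = 0.000748). Slc27a1, a fatty acid transporter, went from 7.65, 7.35 and 6.00 to 25.1, 36.3 and 38.1 CPM (log2 change 2.24 ± 0.22 (SE), adjusted p = 4.86e-05). Ppara itself was at 79.8, 53.4 and 41.5 CPM fed and 87.7, 81.6 and 95.6 CPM fasted. Its lowest fasted liver lay just above its highest fed liver, and the change did not pass (log2 change 0.60 ± 0.21 (SE), adjusted p = 0.0687). Ppara passed the test without mouse 277 or in DESeq2 (adjusted p = 0.0105 to 0.0297). Angptl4, an inhibitor of lipoprotein lipase, was called higher (log2 change 1.52 ± 0.44 (SE), adjusted p = 0.0400). Angptl4 lost its call without mouse 277, 284, 290 or 295, with no count filter, in a fit of the 6 mice labelled NTS KO alone or with scaling by library totals (adjusted p = 0.0565 to 0.120).

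Genes of ketone body synthesis rose. Of 8 tested genes, 4 were called higher (50%) and 2 lower. Bdh1, which turns acetoacetate into beta-hydroxybutyrate, was at 225, 246 and 288 CPM in the fed and 469.5, 312 and 512 CPM in the fasted mice. Every fasted liver was above every fed one (log2 change 0.77 ± 0.17 (SE), adjusted p = 0.00841). Acat1, mitochondrial acetoacetyl-CoA thiolase, went from 468, 446 and 456 to 827, 704 and 928 CPM (log2 change 0.84 ± 0.17 (SE), adjusted p = 0.00453). Both genes called lower code for enzymes that use ketone bodies. Aacs, which feeds acetoacetate into lipid synthesis, fell from 88.1, 159 and 66.998 to 9.99, 5.54 and 9.26 CPM (log2 change -3.66 ± 0.65 (SE), adjusted p = 0.00599), and Oxct1 is the ketone body-using transferase. Oxct1 lost its call without any 1 of the 6 mice or with no count filter (adjusted p = 0.0674 to 0.138). Among ketone body genes the count called lower was 1 without mouse 277, 303, 319, 284, 290 or 295.

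Genes of de novo lipogenesis fell. Of 22 tested genes, 15 were called lower (68.2%) and none higher, with a median log2 change of -1.10. Srebf1, the insulin-driven regulator of the pathway, was at 188, 288 and 232 CPM in the fed and 28.5, 17.8 and 24.5 CPM in the fasted livers. The groups were far apart, and the fitted level of fasted livers was 10.004-fold lower (log2 change -3.32 ± 0.38 (SE), adjusted p = 0.000254). Fasn, fatty acid synthase, fell from 660.5, 688 and 304 to 62.3, 51.9 and 98.6 CPM, with fed mouse 319 well below the other fed mice (log2 change -2.96 ± 0.45 (SE), adjusted p = 0.00175). Acly, which makes cytosolic acetyl-CoA, fell from 502, 566 and 346 to 54.1, 61.2 and 80.3 CPM (log2 change -2.85 ± 0.33 (SE), adjusted p = 0.000213). Acaca, acetyl-CoA carboxylase, had a log2 change of -1.13, Mid1ip1, which helps this enzyme polymerize, of -2.89 and Slc25a1, which carries citrate out of the mitochondrion, of -0.96. Counts of 12 to 17 lower calls were found in the fits without 1 mouse.

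Cholesterol synthesis and uptake showed the deepest fall of the 41 lists. Of 26 tested genes, 23 were called lower (88.5%), with a median log2 change of -2.69. Sqle, squalene epoxidase, was at 167, 206 and 73.2 CPM in the fed and 11.7, 9.44 and 13.4 CPM in the fasted mice. Fed mouse 303 was the highest, and all fasted livers lay below all fed ones (log2 change -3.69 ± 0.38 (SE), adjusted p = 0.000167). Fdps, which makes farnesyl diphosphate, fell from 543, 578 and 304 to 26.1, 16.4 and 27.7 CPM (log2 change -4.34 ± 0.29 (SE), adjusted p = 4.89e-06). Mvk and Lss, an early and a late enzyme of the pathway, had log2 changes of -2.68 and -2.83. The single gene called higher was Insig2, which holds the SREBP proteins in the endoplasmic reticulum, at 248, 169 and 178 CPM fed and 968, 893 and 585 CPM fasted (log2 change 2.04 ± 0.37 (SE), adjusted p = 0.00393). The count of lower calls was 23 or 24 in every fit without 1 mouse.

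The 4 short sequence elements given below were looked for in RefSeq promoters (build GRCm38.p6), which were found for 10457 of the tested genes (75.7%). Under 80% of the genes had one, so that the shares hold for these genes only. The window ran from 250 bases before to 50 after the start, and exact letters were sought on both strands. The cyclic AMP response element TGACGTCA was found in 3.39% of the promoters of tested genes, in 3.53% of those of genes called higher and in 2.25% of those of genes called lower. Of the lists searched, 2 of 15 gluconeogenic genes with a promoter had it, and none of 14 immediate early genes or 16 genes of the PGC1 group. The core of the sterol response element, CACCCCAC, was found in 3.81%, 2.92% and 5.73%, in 2 of 18 cholesterol genes and in 2 of 20 lipogenesis genes. The composite element of ATF4, TGATGCAA, was found in 0.794%, 1.58% and 1.23%, and in 6 of the 22 genes of the ATF4 list with a promoter and none of the 23 amino acid catabolism genes. Fgf21 is on that list as well as among the PPARα targets. In the whole promoter table of 32851 entries the shares were 1.79%, 2.87% and 0.895%. A pair of AGGTCA copies with 1 base between them, the site type of PPARα with RXR, had a match in 5 promoters of tested genes (0.0478%, against 0.0396% of the whole table) and in none of the 27 PPARα targets or 22 fatty acid oxidation genes with a promoter. A match is a description of these letters only. The 3 promoters below are shown to place the elements before called genes of the lists they were sought in, each as the 250 bases before the start, with the matched letters in capitals. In Ldha, lactate dehydrogenase A (1.20 on the log2 scale, adjusted p = 0.00135), the match starts 12 bases before the start. In Acat2, cytosolic acetoacetyl-CoA thiolase (-2.18, adjusted p = 4.86e-05), it starts 181 bases before, and in Fgf21 139 bases before, on the opposite strand.
Ldha, chr7:46845554-46845803, + strand: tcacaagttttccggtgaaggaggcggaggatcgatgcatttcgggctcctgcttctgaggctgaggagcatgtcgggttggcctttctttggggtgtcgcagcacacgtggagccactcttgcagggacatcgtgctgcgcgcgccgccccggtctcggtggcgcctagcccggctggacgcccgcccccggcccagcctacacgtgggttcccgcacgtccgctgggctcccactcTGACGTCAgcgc
Acat2, chr17:12960726-12960975, - strand: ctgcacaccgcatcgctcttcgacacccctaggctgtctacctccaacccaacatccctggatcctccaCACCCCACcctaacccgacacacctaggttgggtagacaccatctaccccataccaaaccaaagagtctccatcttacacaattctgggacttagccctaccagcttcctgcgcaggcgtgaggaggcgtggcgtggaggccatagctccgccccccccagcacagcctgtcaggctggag
Fgf21, chr7:45615491-45615740, - strand: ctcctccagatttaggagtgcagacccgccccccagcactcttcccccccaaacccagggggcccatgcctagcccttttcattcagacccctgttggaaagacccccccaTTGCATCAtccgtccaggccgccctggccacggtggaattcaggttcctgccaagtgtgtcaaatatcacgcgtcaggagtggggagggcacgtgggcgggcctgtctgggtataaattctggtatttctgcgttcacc

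Bile acid genes moved in both directions around the canalicular pumps. Abcb11, which exports bile salts, was at 784, 766 and 613 CPM in the fed and 185, 239.9 and 326 CPM in the fasted livers, without overlap (log2 change -1.53 ± 0.20 (SE), adjusted p = 0.000206). Abcb4, which exports phosphatidylcholine beside it, rose from 228, 179 and 196 to 442, 539 and 556 CPM (log2 change 1.35 ± 0.16 (SE), adjusted p = 0.000144). Cyp8b1, which sets the share of cholic acid, rose from 449.99, 347 and 187 to 987, 1227 and 954 CPM (log2 change 1.69 ± 0.38 (SE), adjusted p = 0.0116). Of 20 tested genes, 4 were called higher (20.0%) and 1 lower (5.00%). Cyp39a1, an oxysterol hydroxylase, and Abcc3, a basolateral pump, were the other 2 called (1.66 and 0.66). Cyp7a1, the rate-limiting enzyme of bile acid synthesis, was at 167, 921 and 55.6 CPM fed and 57.9, 148 and 50.9 CPM fasted. Fed mouse 303 stood far above the other 5 livers, the groups overlapped, and the change did not pass (log2 change -2.16 ± 1.07 (SE), adjusted p = 0.209). Nr0b2, the corepressor SHP, had a log2 change of 0.10 with overlapping groups (adjusted p = 0.932).

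Apolipoproteins and lipoprotein assembly genes were called higher in 8 of 21 cases (38.1%) and lower in 2. Apoa4, a fasting-responsive apolipoprotein, was at 245, 117 and 131 CPM in the fed and 2167, 3380.3 and 2411 CPM in the fasted mice (log2 change 4.01 ± 0.52 (SE), adjusted p = 0.000726). All fasted livers lay above all fed ones. Apoa1, the main protein of HDL, rose from 5074, 3830.0 and 6570.2 to 9901, 10199 and 10849.7 CPM (log2 change 1.00 ± 0.22 (SE), adjusted p = 0.00694). Mttp, which loads lipid on nascent lipoproteins, rose by 1.02 on the log2 scale (adjusted p = 0.000314) and Apob, their structural protein, by 0.58 (adjusted p = 0.0352). Lipc, hepatic lipase, fell from 220.1, 221 and 185 to 134, 102 and 167 CPM (log2 change -0.64 ± 0.16 (SE), adjusted p = 0.0136). Apoa5 and Apoc2, which act on lipoprotein lipase, had log2 changes of 0.88 and 0.90, and Tm6sf2, the other lower call, of -0.48. Apob lost its call without mouse 303, 319, 284, 290 or 295 or with scaling by library totals (adjusted p = 0.0575 to 0.116), Lipc without mouse 277, 303 or 290 (adjusted p = 0.0533 to 0.0557), and Apoc2 without mouse 277 (adjusted p = 0.0551). Tm6sf2 lost it without mouse 277, 284 or 290 (adjusted p = 0.0621 to 0.0834). Among apolipoprotein genes the count called higher was 5 without mouse 277, 303, 284 or 295, and the count called lower was 0 without mouse 277 or 290, and 1 without mouse 303 or 284.

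Gluconeogenic genes rose in part. Of 18 tested, 10 were called higher (55.6%) and none lower, and the median log2 change was 1.04. G6pc, which releases free glucose, was at 251, 243 and 295 CPM in the fed and 1078, 429 and 622 CPM in the fasted mice. Fasted mouse 284 was the highest, and no fasted liver reached down to the fed ones (log2 change 1.43 ± 0.31 (SE), adjusted p = 0.00949). Slc37a4, which carries glucose 6-phosphate to that enzyme, rose from 87.6, 100.4 and 95.7 to 216, 277 and 341 CPM (log2 change 1.56 ± 0.18 (SE), adjusted p = 0.000114). Pcx, pyruvate carboxylase, and Gpd1, which takes in glycerol carbon, rose by 1.08 and 1.26 on the log2 scale. Pck1, phosphoenolpyruvate carboxykinase, was at 1319, 326 and 1699 CPM fed and 3189, 2263 and 4074 CPM fasted. The groups did not overlap, but fed mouse 303 lay far below the other fed mice and the change did not pass (log2 change 1.51 ± 0.50 (SE), adjusted p = 0.0653). It passed without fed mouse 303 (adjusted p = 0.0354) or fed mouse 319 (0.0369) and in DESeq2 (0.00718). Fbp1, fructose bisphosphatase, had a log2 change of 0.24 with overlapping groups (adjusted p = 0.278). The calls on this list numbered 8 to 11 in the fits without 1 mouse, and 1 was called lower without mouse 295.

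**Figure D3:**
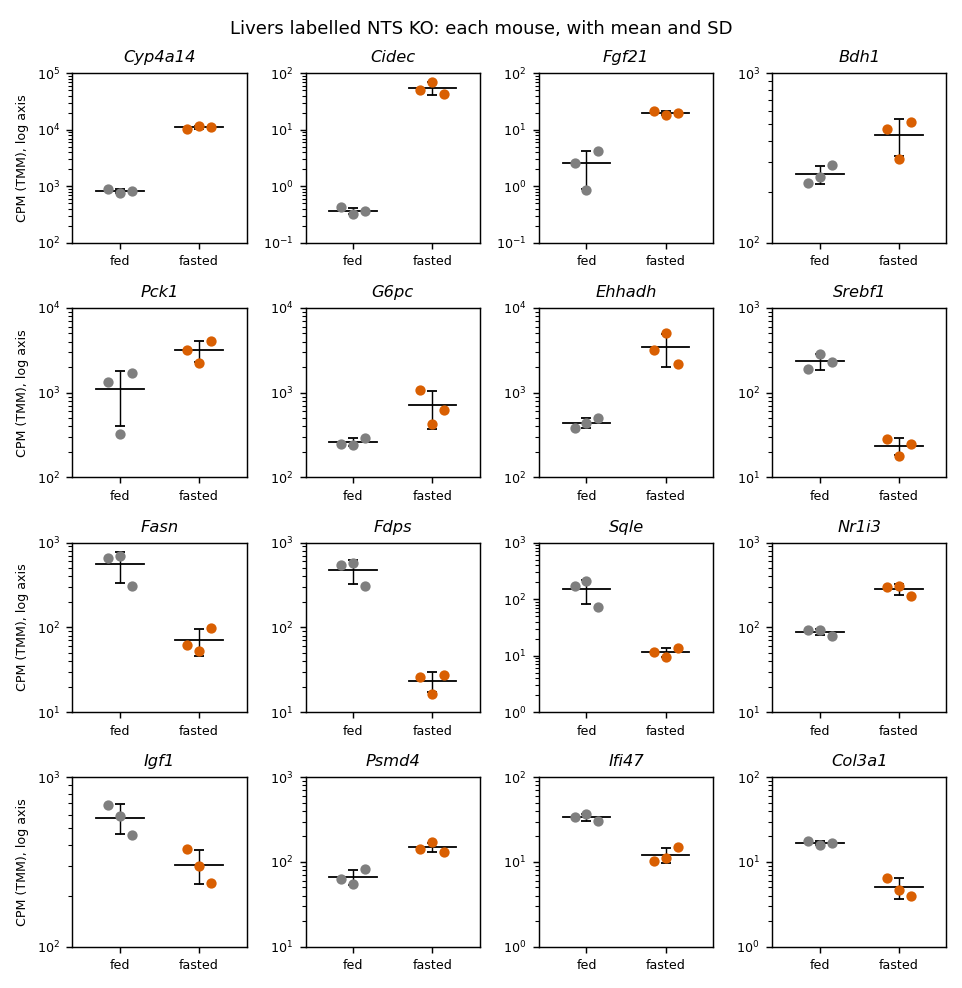
TMM-normalized CPM (log axes) of 16 genes in each fed (grey) and fasted (orange) mouse labelled NTS KO, with the group mean as a line and the SD as a bar (n = 3 mice each). Cyp4a14, Cidec, Fdps and Srebf1 show groups far apart, while Pck1 shows fed mouse 303 well below the other fed mice.

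Genes of glycolysis and fructose entry moved both ways. Pklr, liver pyruvate kinase, fell from 178, 249 and 119.7 to 50.2, 49.1 and 98.8 CPM (log2 change -1.46 ± 0.35 (SE), adjusted p = 0.0155), and Pfkl, liver phosphofructokinase, had a log2 change of -0.65 and was called lower. Khk, fructokinase, had a log2 change of -0.10 (adjusted p = 0.678). In all, 3 of 15 genes were called higher and 3 lower, a share of 20.0% each, and Tkfc, which phosphorylates glyceraldehyde, and Eno1, enolase, were among the higher ones (0.79 and 0.42). Pklr lost its call without mouse 303, 284 or 290 or with no count filter (adjusted p = 0.0556 to 0.0636), Pfkl without mouse 319, 284 or 290 (adjusted p = 0.0508 to 0.0752), and Tkfc without mouse 277 or 295 or with scaling by library totals (adjusted p = 0.0524 to 0.0884). Eno1 lost it without mouse 277, 303, 284, 290 or 295, with upper-quartile scaling, with no count filter, with a minimum of 10 counts in every mouse, in a fit of the 6 mice labelled NTS KO alone or with scaling by library totals (adjusted p = 0.0502 to 0.188). Among glycolysis genes the count called higher was 1 without mouse 277 or 295, and the count called lower was 1 without mouse 284 or 290.

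Glycogen genes moved apart. Gys2, liver glycogen synthase, rose from 84.8, 72.1 and 87.1 to 153, 225 and 211 CPM (log2 change 1.27 ± 0.15 (SE), adjusted p = 0.000123). Pygl, liver glycogen phosphorylase, fell from 457, 489 and 372 to 182, 213 and 298 CPM (log2 change -0.93 ± 0.18 (SE), adjusted p = 0.00390). Ppp1r3b, which targets the activating phosphatase to glycogen, fell from 366, 474 and 284 to 57.995, 63.04 and 157 CPM, with fasted mouse 295 the highest of its group (log2 change -2.01 ± 0.41 (SE), adjusted p = 0.00847). None of these groups overlapped. Of 14 tested genes 1 was called higher and 3 lower (21.4%). Without fed mouse 319 the count called higher was 2. Among 12 genes of the pyruvate dehydrogenase switch 3 were called higher and none lower. Mpc1, a subunit of the mitochondrial pyruvate carrier, was among them (0.62, adjusted p = 0.00589), with Pdha1 and Pdhx of the complex itself (0.55 and 0.40). Pdk4, the kinase that shuts off the dehydrogenase in fasting, was at 55.8, 51.3 and 30.9 CPM fed and 89.6, 64.4 and 45.8 CPM fasted, with overlap and no call (log2 change 0.53 ± 0.43 (SE), adjusted p = 0.440). Pdk2 had a log2 change of -0.17 (adjusted p = 0.500). Pdha1 lost its call without mouse 277 or 295 or with scaling by library totals (adjusted p = 0.0501 to 0.0599), and Pdhx without mouse 277, 303, 284, 290 or 295, with upper-quartile scaling, with no count filter, in a fit of the 6 mice labelled NTS KO alone or with scaling by library totals (adjusted p = 0.0596 to 0.173). Among pyruvate dehydrogenase genes the count called higher was 1 without mouse 277 or 295, and 5 without mouse 319.

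Some genes of the TCA cycle rose, and few OXPHOS subunits passed the test. In the TCA cycle 7 of 18 genes were called higher (38.9%) and none lower. Fh1, fumarase, was at 134, 158 and 179 CPM in the fed and 366, 385 and 324 CPM in the fasted livers, without overlap (log2 change 1.19 ± 0.16 (SE), adjusted p = 0.000248). Dlst and Suclg1, of the middle of the cycle, rose by 0.83 and 0.78 on the log2 scale. Cs, citrate synthase, had a log2 change of -0.20 (adjusted p = 0.438) with overlapping groups. Among TCA cycle genes the count called higher was 4 without mouse 277. The 77 nuclear-encoded subunits of oxidative phosphorylation had positive log2 changes in 74 cases, with a median of 0.31 against -0.01 over all genes. In edgeR 4 were called higher (5.19%, below the 7.70% of all genes) and 1 lower (1.299%). The place of this list against all genes depended on the measure. DESeq2 called 11 of the 77 higher, beside 1407 of the 13812 genes tested. In 22 of the 77 every fasted library lay above every fed library, beside 17.1% of all genes. Atp5g3, a subunit of the ATP synthase ring, rose from 251, 324 and 385 to 579, 507 and 542 CPM (log2 change 0.76 ± 0.15 (SE), adjusted p = 0.00474). Ndufa8, of complex I, and Uqcr10, of complex III, rose by 0.50 and 0.54 on the log2 scale, while Ndufa1, Sdha and Atp5a1 were not called (0.16, -0.02 and 0.41). The lower call was Atpif1, the inhibitor of that synthase, from 12.3, 15.6 and 14.5 to 8.93, 7.92 and 10.2 CPM (log2 change -0.64 ± 0.15 (SE), adjusted p = 0.0111). Atp5a1 passed the test in DESeq2 (adjusted p = 0.0355). Atpif1 lost its call without mouse 303 or 290 (adjusted p = 0.0522 to 0.0551), Ndufa8 without mouse 277, 303 or 295 or with scaling by library totals (adjusted p = 0.0595 to 0.0674), and Uqcr10 without mouse 277, 303, 284 or 295, in a fit of the 6 mice labelled NTS KO alone or with scaling by library totals (adjusted p = 0.0627 to 0.118). Scaling by library totals left 65 of the 77 positive, with a median of 0.15. Without fed mouse 319, in which the median subunit stood above that of the other fed mice, 30 subunits were called higher, and without fed mouse 277, fed mouse 303 or fasted mouse 295 1 was. Without fasted mouse 284 the count was 2, and without fed mouse 303 or fasted mouse 290 none was called lower.

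All 13 protein genes of the mitochondrial DNA had positive log2 changes. Of these 2 (15.4%), mt-Nd5 and mt-Nd6, were called higher (0.98 and 1.12), while mt-Nd1 and mt-Co1 were not (0.59 and 0.50). mt-Nd5 lost its call without mouse 277, 319 or 290 (adjusted p = 0.0572 to 0.0973), and mt-Nd6 without mouse 277, 303, 319, 284 or 290, with upper-quartile scaling, with no count filter or with scaling by library totals (adjusted p = 0.0569 to 0.154). Among mitochondrial DNA genes the count called higher was 0 without mouse 277, 319 or 290, and 1 without mouse 303 or 284. The share of counts on genes of the mitochondrial DNA was 2.70% to 3.98% in fed and 3.50% to 5.81% in fasted livers (two-sided exact permutation test, p = 0.3, n = 3 each, in which no p under 0.1 is possible). Ppargc1a, which codes for the coactivator PGC1α, was at 7.80, 6.84 and 8.06 CPM in the fed and 6.78, 24.98 and 13.5 CPM in the fasted mice. Fasted mouse 284 lay below all 3 fed mice, the other fasted mice above them, and the change did not pass (log2 change 0.99 ± 0.34 (SE), adjusted p = 0.0649). It passed without that mouse (1.34, adjusted p = 0.00240) and in DESeq2 (adjusted p = 0.0141). Ppargc1b had a log2 change of 0.45 and Tfam, the packaging factor of the mitochondrial genome, of 0.38 (adjusted p = 0.558 and 0.0951). Of 17 genes of this group 2 were called higher (11.8%), Tfb2m and Sirt3, by 0.44 and 0.42. Tfb2m lost its call without mouse 277, 284 or 290 or with scaling by library totals (adjusted p = 0.0560 to 0.134), and Sirt3 without any 1 of the 6 mice, with no count filter or with scaling by library totals (adjusted p = 0.0629 to 0.178). In the PGC1 group the count called higher was 0 without mouse 277 or 290, and 1 without mouse 303, 319, 284 or 295.

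Genes of nitrogen handling changed gene by gene. In the urea cycle 4 of 11 genes were called higher (36.4%) and 2 lower. Asl, argininosuccinate lyase, was at 431, 578 and 581 CPM in the fed and 1182, 1574 and 1493 CPM in the fasted mice (log2 change 1.42 ± 0.23 (SE), adjusted p = 0.000975). Arg1, arginase, rose by 0.83 on the log2 scale (adjusted p = 0.00568), and Cps1, the entry enzyme, had a log2 change of 0.63 with fasted mouse 284 among the fed mice (adjusted p = 0.101). Cps1 passed the test in DESeq2 (adjusted p = 0.0452). Gls2, liver glutaminase, fell from 475, 561 and 658 to 282, 309.9 and 364 CPM (log2 change -0.82 ± 0.24 (SE), adjusted p = 0.0308). The mitochondrial carriers Slc25a13 and Slc25a15 had log2 changes of 0.62 and 0.53, and Glud1, which frees ammonia from glutamate, of -0.50. Gls2 lost its call without mouse 303, 319, 284 or 290 (adjusted p = 0.0762 to 0.114), Slc25a13 without mouse 277 or 295 or with scaling by library totals (adjusted p = 0.0517 to 0.0727), and Slc25a15 without mouse 277, 319, 284, 290 or 295 or with scaling by library totals (adjusted p = 0.0572 to 0.142). Glud1 lost it without mouse 277, 319, 284 or 290 or in a fit of the 6 mice labelled NTS KO alone (adjusted p = 0.0530 to 0.104). Among urea cycle genes the count called higher was 2 without mouse 277 or 295, and the count called lower was 1 without mouse 277 or 303, and 0 without mouse 319, 284 or 290. Amino acid catabolism had 4 of 32 called higher (12.5%) and 2 lower. Oat, ornithine aminotransferase, rose from 647, 1191 and 526 to 2690.5, 3187 and 3084 CPM (log2 change 1.92 ± 0.32 (SE), adjusted p = 0.00173), and Tdo2, tryptophan dioxygenase, from 659, 775 and 1042 to 2044, 1922 and 1791 CPM (log2 change 1.22 ± 0.20 (SE), adjusted p = 0.00132). Aass, which degrades lysine, had a log2 change of 1.14. Ido2, another enzyme that opens the tryptophan ring, and Afmid, which acts after it, were the lower calls (-1.05 and -0.92). Aass lost its call without mouse 277, 303, 319, 284 or 290 (adjusted p = 0.0565 to 0.0915), and Afmid without mouse 277, 303, 290 or 295 (adjusted p = 0.0631 to 0.123). Among the catabolic enzymes the count called lower was 1 without mouse 277, 303, 290 or 295. Tat and Sds, which degrade tyrosine and serine, had log2 changes of 0.25 and -0.36 with no call (adjusted p = 0.513 and 0.637).

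Of 29 genes of serine, methionine and folate metabolism, Mat1a among them, 6 were called higher (20.7%) and none lower. The log2 changes of the 29 were positive in 15 and negative in 14, with a median of 0.07. Ahcy, which clears S-adenosylhomocysteine, went from 1734, 1938 and 1698 to 3695, 3647 and 3908 CPM without overlap (log2 change 1.07 ± 0.16 (SE), adjusted p = 0.000727). Nnmt, which uses methyl groups to inactivate nicotinamide, went from 76.3, 95.3 and 111 to 269, 254 and 207 CPM (log2 change 1.37 ± 0.24 (SE), adjusted p = 0.00252). Mat2a, the form of the synthetase outside liver, rose by 0.88 on the log2 scale. Phgdh, the entry to serine synthesis, was at 0.185, 0.253 and 0.524 CPM fed and 0.183, 0.779 and 0.378 CPM fasted, with overlapping groups and no call (log2 change 0.51 ± 0.58 (SE), adjusted p = 0.597), and Mthfd1, a folate enzyme, was not called (-0.34). Mthfd1 passed the test with scaling by library totals (adjusted p = 0.0308). Among 21 amino acid transporters 3 were called higher and 6 lower (28.6%). Slc1a4, a neutral amino acid carrier, fell from 7.96, 15.3 and 8.74 to 2.98, 2.42 and 1.75 CPM (log2 change -2.18 ± 0.30 (SE), adjusted p = 0.000415), and Slc1a2, a glutamate carrier, rose from 101.3, 121 and 61.8 to 172, 196 and 194 CPM (log2 change 0.98 ± 0.20 (SE), adjusted p = 0.00510). The other called carriers with the smallest p were Slc16a10 and Slc7a2, which rose by 0.75 and 0.73, and Slc36a1 and Slc6a6, with log2 changes of -0.93 and -1.05. Slc38a2 was not called (0.21). Slc7a2 lost its call without mouse 277, 303, 290 or 295 or with scaling by library totals (adjusted p = 0.0779 to 0.147).

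Proteasome subunits rose as a group. Of 34 tested, 29 were called higher (85.3%), none lower, with a median log2 change of 0.50. Psmd4, a ubiquitin receptor of the particle, was at 63.6, 55.5 and 82.4 CPM in the fed and 144, 171 and 133 CPM in the fasted livers (log2 change 1.15 ± 0.16 (SE), adjusted p = 0.000307). Psmd9, an assembly chaperone, went from 25.2, 22.7 and 32.7 to 70.3, 70.2 and 67.5 CPM (log2 change 1.37 ± 0.14 (SE), adjusted p = 5.16e-05). Psmc1, an ATPase of the base, and Psmd1, its scaffold, rose by 0.86 and 0.71 on the log2 scale. Fed and fasted livers did not overlap in any of these. Psma1 was among those not called (0.26, adjusted p = 0.114). Psma1 passed the test in DESeq2 (adjusted p = 0.0488). Psmb9, an immunoproteasome subunit counted with the interferon genes, fell from 20.6, 22.9 and 18.1 to 7.70, 9.27 and 12.5 CPM (log2 change -1.05 ± 0.18 (SE), adjusted p = 0.00178). Among proteasome subunits the count called higher was 14 without mouse 277, and 16 without mouse 303. Scaling by library totals left 15 of the 34 called, all of them higher, with a median of 0.34.

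Autophagy and lysosome genes rose in 9 of 33 cases (27.3%) and fell in 2. Bnip3, a receptor for the removal of mitochondria, was at 169, 156 and 159 CPM in the fed and 405, 423 and 375 CPM in the fasted mice (log2 change 1.31 ± 0.20 (SE), adjusted p = 0.000610). Ctsl, a lysosomal protease, went from 478, 484 and 499 to 894, 919 and 852 CPM (log2 change 0.87 ± 0.16 (SE), adjusted p = 0.00261). Map1lc3a and Map1lc3b, which coat the autophagosome, rose by 0.80 and 0.65 on the log2 scale. Ctsb, another lysosomal protease, and Ulk2, a kinase that starts autophagy, were the lower calls (-0.51 and -0.49). Sqstm1 and Tfeb, the cargo receptor p62 and the lysosomal regulator, were not called (0.33 and 0.04). Ctsb lost its call without mouse 303, 319, 284 or 290 or in a fit of the 6 mice labelled NTS KO alone (adjusted p = 0.0692 to 0.138), and Ulk2 without mouse 277, 303, 284 or 290 or in a fit of the 6 mice labelled NTS KO alone (adjusted p = 0.0565 to 0.142). Among autophagy genes the count called lower was 1 without mouse 277 or 319, and 0 without mouse 303, 284 or 290.

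Ribosomal protein genes shifted little. Of 78 tested, 77 had positive log2 changes with a median of 0.26, and 2 were called higher, Rps9 and Rps18 (2.56%). Rps18 was at 179, 199 and 256 CPM in the fed and 311, 278 and 330.4 CPM in the fasted mice (log2 change 0.54 ± 0.15 (SE), adjusted p = 0.0264). Mouse 319 stood above the other fed mice, as it did for Rps9. Rps9 lost its call without mouse 277, 303, 284, 290 or 295, in a fit of the 6 mice labelled NTS KO alone or with scaling by library totals (adjusted p = 0.0526 to 0.145), and Rps18 without mouse 277, 303, 284 or 295, in a fit of the 6 mice labelled NTS KO alone or with scaling by library totals (adjusted p = 0.0606 to 0.124). Among ribosomal proteins the count called higher was 0 without mouse 277, 303, 284 or 295, and 33 without mouse 319, and 1 without mouse 290. Scaling by library totals left 57 of the 78 positive. DESeq2 called 10 of the 78 higher, beside 1407 of the 13812 genes tested. Rplp0 and Rps6 were not called (0.16 and 0.38). Rps6 passed the test without mouse 319 (adjusted p = 0.00725). Of 27 genes of ribosome biogenesis 8 were called higher (29.6%) and none lower. Ddx21, a nucleolar helicase, went from 26.2, 31.9 and 27.4 to 45.03, 54.3 and 36.9 CPM (log2 change 0.67 ± 0.16 (SE), adjusted p = 0.0111), and Nop56, Ncl and Gnl3 rose by 0.70, 0.53 and 0.76 on the log2 scale. Pes1 was called too (0.38), and Polr1b, of RNA polymerase I, was not (0.43). Polr1b passed the test without mouse 303 (adjusted p = 0.0496). Ddx21 lost its call without mouse 290 (adjusted p = 0.0567), Nop56 without mouse 277 or 290, in a fit of the 6 mice labelled NTS KO alone or with scaling by library totals (adjusted p = 0.0565 to 0.104), and Ncl without mouse 277, 303, 284 or 290 or with scaling by library totals (adjusted p = 0.0608 to 0.109). Gnl3 lost it without mouse 277 or 290 or with scaling by library totals (adjusted p = 0.0551 to 0.0800), and Pes1 without mouse 277, 284 or 290, with no count filter, in a fit of the 6 mice labelled NTS KO alone or with scaling by library totals (adjusted p = 0.0603 to 0.163). Among biogenesis genes the count called higher was 1 without mouse 277, and 3 without mouse 284, and 0 without mouse 290.

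Genes of the growth hormone and IGF axis fell in part, since 7 of 17 genes were called lower (41.2%) and 1 higher. Igf1, the liver-made growth factor, was at 683, 592 and 456 CPM in the fed and 376, 300.2 and 236 CPM in the fasted livers (log2 change -0.92 ± 0.19 (SE), adjusted p = 0.00568). Igfals, which keeps it in the circulation, fell from 191, 155 and 150.3 to 67.8, 55.8 and 61.1 CPM (log2 change -1.43 ± 0.16 (SE), adjusted p = 0.000104), and Ghr, the growth hormone receptor, Stat5a, which carries its signal, and Igfbp3 had log2 changes of -0.85, -0.53 and -0.72. Igfbp2, a binding protein, was the gene called higher, from 264, 236 and 403 to 1029, 676 and 839 CPM (log2 change 1.49 ± 0.21 (SE), adjusted p = 0.000460). Igfbp1, a binding protein that insulin represses, was at 139.6, 38.4 and 171 CPM fed and 518, 376 and 382 CPM fasted. Its groups did not overlap, but fed mouse 303 was far below the other fed mice and the change did not pass (log2 change 1.87 ± 0.76 (SE), adjusted p = 0.129). Stat5a lost its call without mouse 277, 303, 284 or 290 or in a fit of the 6 mice labelled NTS KO alone (adjusted p = 0.0552 to 0.156), and Igfbp3 without mouse 277, 319, 284, 290 or 295 or with no count filter (adjusted p = 0.0599 to 0.133). In the IGF axis the count called higher was 2 without mouse 319, and the count called lower was 3 without mouse 277, 284 or 290, and 4 without mouse 303 or 295.

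Hormone receptors and their targets gave scattered calls. Lepr, the leptin receptor, was at 6.85, 5.03 and 7.74 CPM in the fed and 36.1, 48.8 and 42.2 CPM in the fasted mice, 6.48-fold higher (log2 change 2.70 ± 0.52 (SE), adjusted p = 0.00739). Irs2, Insr and Gcgr, which carry the insulin and glucagon signals, had log2 changes of 0.84, -0.08 and 0.28 with no call. Of 23 genes of insulin and glucagon signalling 3 were called higher (13%) and 1 lower (4.35%), the latter Sesn1 (-0.75). Grb14, which inhibits the insulin receptor, was among the higher ones (0.66). Grb14 lost its call without mouse 303, 319, 290 or 295 or with scaling by library totals (adjusted p = 0.0679 to 0.102). Among insulin signalling genes the count called lower was 2 without mouse 303 or 295, and 3 without mouse 319. Trib3, an inhibitor of Akt, rose from 4.23, 1.77 and 2.09 to 5.86, 9.44 and 11.7 CPM (log2 change 1.72 ± 0.30 (SE), adjusted p = 0.00207). Among 17 glucocorticoid-responsive genes 4 were called higher (23.5%), with Cebpd, a C/EBP factor, from 3.33, 2.82 and 4.79 to 8.93, 9.70 and 9.52 CPM (log2 change 1.37 ± 0.29 (SE), adjusted p = 0.00615). Fkbp5, Tsc22d3 and Per1, 3 common readouts of the receptor, were not called (0.44, -0.01 and 1.64), and Nr3c1, the receptor gene, was the 1 called lower (-0.61). Per1 passed the test in DESeq2 or in a fit of the 6 mice labelled NTS KO alone (adjusted p = 0.0180 to 0.0195). Nr3c1 lost its call without mouse 277, 303, 284 or 290 (adjusted p = 0.0509 to 0.0688). Among glucocorticoid-responsive genes the count called higher was 1 without mouse 277, and 2 without mouse 303, 319 or 295, and the count called lower was 0 without mouse 277, 303, 284 or 290. Immediate early genes had 1 of 20 called higher and 1 lower, with Nr4a1, Fos and Crem not called (1.23, -1.35 and -0.13). The called pair was Nr4a2 and Klf6 (1.77 and -0.63). Nr4a2 lost its call without mouse 277, 303, 284 or 290 or with scaling by library totals (adjusted p = 0.0607 to 0.164), and Klf6 without mouse 277, 319, 284, 290 or 295 (adjusted p = 0.0656 to 0.106). Among immediate early genes the count called higher was 0 without mouse 277, 303, 284 or 290, and the count called lower was 0 without mouse 277, 319, 284, 290 or 295.

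Among 18 clock genes 4 were called higher (22.2%) and 1 lower. Dbp, an output factor of the clock, was at 0.635, 0.905 and 0.765 CPM in the fed and 2.34, 1.86 and 8.83 CPM in the fasted mice, with mouse 295 far above the others (log2 change 2.53 ± 0.61 (SE), adjusted p = 0.0153). Ciart, a clock repressor, rose from 0.0794, 0.109 and 0.0403 to 0.870, 0.433 and 0.898 CPM (log2 change 3.19 ± 0.64 (SE), adjusted p = 0.00450). Tef and Nr1d2 rose by 1.02 and 1.22 on the log2 scale. Npas2, a partner of the activator BMAL1, fell from 13.5, 13.6 and 12.01 to 6.55, 4.07 and 2.22 CPM (log2 change -1.63 ± 0.29 (SE), adjusted p = 0.00271). Arntl, which codes for that activator, and Per2 were not called (-0.57 and 0.87, adjusted p = 0.0993 and 0.0885). Arntl passed the test with scaling by library totals (adjusted p = 0.0337), and Per2 in DESeq2 (adjusted p = 0.0468). Dbp lost its call without mouse 277 (adjusted p = 0.0733), Tef without mouse 277, 319 or 295 (adjusted p = 0.0504 to 0.0719), and Nr1d2 without mouse 277, 303, 290 or 295, with no count filter, in a fit of the 6 mice labelled NTS KO alone or with scaling by library totals (adjusted p = 0.0524 to 0.137). Among clock genes the count called higher was 1 without mouse 277, and 2 without mouse 295, and the count called lower was 3 without mouse 284. The time of day at which livers were taken is not given in the sources used here, and its part in these values was not tested. Of 20 hepatokines 3 were called higher and 3 lower (15% each). Angptl8, a feeding-induced lipase inhibitor, fell from 23.3, 48.7 and 91.3 to 6.83, 5.50 and 10.96 CPM (log2 change -2.79 ± 0.64 (SE), adjusted p = 0.0184), and Inhbe, an activin subunit, rose from 27.04, 25.8 and 17.001 to 67.7, 65.9 and 87.7 CPM (log2 change 1.66 ± 0.42 (SE), adjusted p = 0.0236). Inhba and Angptl6 were the other lower calls (-0.89 and -0.68). Angptl8 lost its call without mouse 284 or 290 (adjusted p = 0.0706 to 0.0737), Inhbe without any 1 of the 6 mice or with no count filter (adjusted p = 0.0517 to 0.0685), and Inhba without mouse 277, 303, 284, 290 or 295, with no count filter or in a fit of the 6 mice labelled NTS KO alone (adjusted p = 0.0510 to 0.170). Angptl6 lost it without mouse 303, 319, 284, 290 or 295, with RLE scaling or in a fit of the 6 mice labelled NTS KO alone (adjusted p = 0.0510 to 0.165). Among hepatokines the count called higher was 1 without mouse 277, 284, 290 or 295, and the count called lower was 0 without mouse 290, and 1 without mouse 295.

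Among stress response genes, the unfolded protein and heat shock lists gave few calls. In the ATF4 response 4 of 25 genes were called higher (16.0%, above the 7.70% of all genes) and 1 lower. Trib3 and Fgf21 have been given above, and Atf5, a related factor, and Cth, which makes cysteine, were the others called higher (0.72 and 0.81). Pycr1, of proline synthesis, was called lower (-1.89). Atf4 itself was at 77.7, 86.01 and 96.97 CPM fed and 88.05, 60.6 and 68.1 CPM fasted with overlapping groups (log2 change -0.27 ± 0.15 (SE), adjusted p = 0.231), and Asns, asparagine synthetase, was not called either (0.82, adjusted p = 0.462). Atf4 passed the test with scaling by library totals (adjusted p = 0.0425). Atf5 lost its call without mouse 303 or 290 (adjusted p = 0.0701 to 0.0795), Cth without mouse 277, 303, 319, 290 or 295, with upper-quartile scaling or with scaling by library totals (adjusted p = 0.0528 to 0.168), and Pycr1 without mouse 277, 303, 284, 290 or 295, in DESeq2 or with no count filter (adjusted p = 0.0599 to 0.177). In the ATF4 response the count called higher was 2 without mouse 303 or 290, and the count called lower was 0 without mouse 277, 303, 284 or 290, and 2 without mouse 319 or 295. Of 23 genes of the unfolded protein response none was called higher and 1 lower, Edem1 (-0.53). Hspa5, the main chaperone of the endoplasmic reticulum, was at 503, 645 and 962 CPM fed and 1187, 709 and 1183 CPM fasted, with overlap (log2 change 0.54 ± 0.34 (SE), adjusted p = 0.304), and Xbp1 and Dnajb9 were not called (0.06 and 0.72). Of 20 heat shock genes 1 was called, Hspa4l, which fell (-0.68). Hspa8 and Hsph1 were not called (0.50 and 0.03). Hspa8 passed the test without mouse 319 (adjusted p = 0.0373). Edem1 lost its call without mouse 303, 284 or 290 or in a fit of the 6 mice labelled NTS KO alone (adjusted p = 0.0523 to 0.113), and Hspa4l without mouse 290 (adjusted p = 0.0556). Among heat shock genes the count called higher was 2 without mouse 319, and the count called lower was 0 without mouse 290. In the unfolded protein response the count called higher was 1 without mouse 319, and the count called lower was 0 without mouse 303, 284 or 290.

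Growth arrest and antioxidant genes gave calls in both directions, and iron genes gave 1. Among 20 p53 targets Gadd45b was called higher and Gadd45a and Bbc3 lower, with Bbc3, a cell death gene, going from 12.1, 14.2 and 11.3 to 4.81, 4.59 and 5.60 CPM (log2 change -1.32 ± 0.26 (SE), adjusted p = 0.00402). Cdkn1a, the cell cycle inhibitor p21, was not called (0.73, adjusted p = 0.238). Cdkn1a passed the test without mouse 319 (adjusted p = 0.0248). Gadd45a lost its call without mouse 319, 284, 290 or 295 (adjusted p = 0.0659 to 0.0733), and Gadd45b without mouse 277, 303, 290 or 295 or with no count filter (adjusted p = 0.0691 to 0.115). Among p53 targets the count called higher was 0 without mouse 277, 303, 290 or 295, and 2 without mouse 319, and the count called lower was 1 without mouse 284 or 290. Among 20 NRF2 targets 3 were called lower (15%), the glutathione transferases Gstm1, Gstm3 and Gstm4. Gstm1 was at 1436, 1586 and 2458 CPM in the fed and 624, 852 and 743 CPM in the fasted livers (log2 change -1.30 ± 0.28 (SE), adjusted p = 0.00804). Srxn1, sulfiredoxin, was called higher, from 43.7, 44.8 and 37.2 to 68.4, 88.8 and 72.5 CPM (log2 change 0.87 ± 0.14 (SE), adjusted p = 0.00101), and Nqo1 and Gclc were not called (0.26 and -0.64). Among NRF2 targets the count called higher was 3 without mouse 319, and the count called lower was 1 without mouse 303. Gstm3 lost its call without mouse 303, 284 or 295 (adjusted p = 0.0509 to 0.0670). Of 22 iron and metallothionein genes Trf was the 1 called. Hamp, the iron hormone hepcidin, was at 986, 1236 and 1339.9 CPM fed and 1223, 617 and 423 CPM fasted, with fasted mouse 284 among the fed mice (log2 change -0.65 ± 0.38 (SE), adjusted p = 0.273), and Tfrc and Mt1 were not called (1.09 and 1.72). Hamp passed the test without mouse 284 (adjusted p = 0.0371), and Tfrc in DESeq2 (adjusted p = 0.0122). Among iron genes the count called lower was 2 without mouse 303, 319 or 284.

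Genes of the receptor CAR and of the P450 reductase rose. Nr1i3, which codes for CAR, a sensor of drugs and bile pigments, was at 91.9, 93.4 and 78.9 CPM in the fed and 301, 307 and 236 CPM in the fasted mice, 3.19-fold higher (log2 change 1.67 ± 0.15 (SE), adjusted p = 2.43e-05). Por, which passes electrons to all microsomal P450 enzymes, went from 276, 271 and 254 to 667, 716 and 634 CPM (log2 change 1.33 ± 0.12 (SE), adjusted p = 2.55e-05). Both had groups far apart and narrow. Nr1i2, the related receptor PXR, was not called (0.22, adjusted p = 0.509). Cyp26a1, which degrades retinoic acid, fell from 9.26, 25.6 and 9.06 to 1.47, 2.34 and 2.72 CPM (log2 change -2.72 ± 0.45 (SE), adjusted p = 0.00262). In all, 5 of 30 genes of this group were called higher (16.7%) and 4 lower (13.3%). Cyp3a25 and Cyp3a13 rose by 1.12 and 0.62 on the log2 scale, and Cyp2c55 and Cyp1a2 had log2 changes of -2.29 and -1.15. Cyp3a13 lost its call without mouse 303, 319, 284 or 295 or with scaling by library totals (adjusted p = 0.0624 to 0.0983), Cyp2c55 without mouse 303, 284 or 295 or with no count filter (adjusted p = 0.0514 to 0.0784), and Cyp1a2 without mouse 277, 303, 290 or 295 or with no count filter (adjusted p = 0.0596 to 0.0902). In the xenobiotic group the count called lower was 2 without mouse 277, 284, 290 or 295, and 1 without mouse 303. Of 23 acute phase genes 3 were called higher (13%) and 1 lower. Hp, haptoglobin, rose from 2167, 1281 and 2390.2 to 4074, 3609 and 4524 CPM (log2 change 1.06 ± 0.22 (SE), adjusted p = 0.00539), and Steap4, a metalloreductase, fell from 126, 119.7 and 98.1 to 63.6, 35.9 and 59.6 CPM (log2 change -1.11 ± 0.19 (SE), adjusted p = 0.00141). Lcn2 and Serpina3n rose by 2.36 and 1.18 on the log2 scale. Saa1 and Orm1 were not called (-0.07 and -0.49). Orm1 passed the test without mouse 319 or with scaling by library totals (adjusted p = 0.0111 to 0.0375). Lcn2 lost its call without mouse 303, 319, 290 or 295, with no count filter or in a fit of the 6 mice labelled NTS KO alone (adjusted p = 0.0514 to 0.0969), and Serpina3n without mouse 295 (adjusted p = 0.0507). Among acute phase genes the count called higher was 1 without mouse 295, and the count called lower was 2 without mouse 319, 284 or 295.

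Interferon-stimulated genes fell together. All 29 tested had negative log2 changes, with a median of -0.93, and 22 were called lower (75.9%). Ifi47, an interferon-induced GTPase, was at 34.3, 36.7 and 30.6 CPM in the fed and 10.2, 11.3 and 14.8 CPM in the fasted livers (log2 change -1.48 ± 0.20 (SE), adjusted p = 0.000294). Ifit1, an antiviral RNA-binding protein, fell from 21.2, 34.1 and 14.9 to 4.08, 4.68 and 11.4 CPM, with fed mouse 303 the highest (log2 change -1.77 ± 0.39 (SE), adjusted p = 0.0119). No fasted liver reached a fed one in these genes. Xaf1 had a log2 change of -1.69 and was called lower, and Irf7, a regulator of the response, was not called (-0.89, adjusted p = 0.0925). Irf7 passed the test in DESeq2, in a fit of the 6 mice labelled NTS KO alone or with scaling by library totals (adjusted p = 0.0251 to 0.0499). Ifit1 lost its call without mouse 290 or in a fit of the 6 mice labelled NTS KO alone (adjusted p = 0.0509 to 0.0645). Among interferon-stimulated genes the count called lower was 13 without mouse 303 or 284, and 14 without mouse 290. The 9 Kupffer cell markers summed to 383 to 546 CPM in the fed and 341 to 540 CPM in the fasted livers, and the 9 lymphocyte markers to 7.43 to 10.7 and 5.16 to 9.82 CPM. Both ranges overlapped and none of these 18 markers was called in edgeR, and their part in the fall was not tested. Among the Kupffer markers, Clec4f was lower in every fasted than in every fed liver (73.2 to 92.4 against 112 to 150 CPM), and so was Cd68 (7.03 to 8.84 against 9.98 to 14.6 CPM). Marco was at 102 CPM in fasted mouse 290 and at 3.95 to 9.52 CPM in the other 5. Clec4f passed the test with scaling by library totals (adjusted p = 0.0323), and Marco in DESeq2 (adjusted p = 0.0111). Of 8 MHC class II genes none was called, and all 8 were negative, with Cd74 and H2-Aa at -0.53 and -0.59 (adjusted p = 0.147 and 0.127).

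Cell cycle genes fell in part. Of 27 tested, 11 were called lower (40.7%) and none higher, with a median log2 change of -0.79. Ccnd1, cyclin D1, was at 86.7, 116 and 81.5 CPM in the fed and 50.9, 47.8 and 34.6 CPM in the fasted livers (log2 change -1.10 ± 0.22 (SE), adjusted p = 0.00491). Top2a, a topoisomerase of dividing cells, went from 0.767, 2.39 and 1.17 to 0.366, 0.260 and 0.354 CPM, with fed mouse 303 the highest (log2 change -2.10 ± 0.46 (SE), adjusted p = 0.00780). E2f1, which drives entry to DNA synthesis, went from 2.43, 2.97 and 3.26 to 0.641, 1.21 and 0.780 CPM (log2 change -1.72 ± 0.33 (SE), adjusted p = 0.00335). Mki67, the Ki-67 antigen, and Mcm5 were called lower (-1.74 and -1.56), and Mcm2, a replication helicase subunit, was not called (-0.45). Mki67 lost its call without mouse 303, 290 or 295 or in a fit of the 6 mice labelled NTS KO alone (adjusted p = 0.0562 to 0.0881). Among cell cycle genes the count called lower was 5 without mouse 303, and 7 without mouse 284, and 6 without mouse 290 or 295.

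Many collagen and laminin genes fell. Of 28 tested, 13 were called lower (46.4%) and 1 higher, with a median log2 change of -0.54. Col3a1, a fibrillar collagen, was at 17.6, 15.999 and 16.8 CPM in the fed and 6.55, 4.63 and 3.94 CPM in the fasted livers (log2 change -1.75 ± 0.21 (SE), adjusted p = 0.000142). Col14a1, which binds collagen fibrils, fell from 55.5, 57.8 and 50.04 to 24.5, 25.5 and 23.2 CPM (log2 change -1.16 ± 0.12 (SE), adjusted p = 4.66e-05), and Sparc, a matrix glycoprotein, from 52.6, 46.3 and 50.9 to 27.1, 29.6 and 27.1 CPM (log2 change -0.84 ± 0.11 (SE), adjusted p = 0.000269). Fed and fasted livers did not overlap for any of them. Col1a1 and Col4a1 were called lower too (-1.50 and -0.66). The gene called higher was Lamb3, a laminin chain of epithelia, from 3.99, 5.28 and 4.51 to 25.3, 22.4 and 23.2 CPM (log2 change 2.36 ± 0.29 (SE), adjusted p = 0.000229). Col1a1 lost its call without mouse 277 or 295 (adjusted p = 0.0574 to 0.0623), and Col4a1 without mouse 277, 319, 284 or 295 (adjusted p = 0.0851 to 0.156). Among matrix genes the count called lower was 6 without mouse 277 or 295. In CPM of library totals, summed markers of the cells that make matrix were lower in fasted livers as well. The 7 stellate cell markers summed to 246 to 351 CPM in the fed and 211 to 233 CPM in the fasted livers, with 4 called lower, and the defining Lrat and Pdgfrb were at 10.2 to 23.5 and 8.23 to 10.5 CPM in fed and 6.78 to 8.55 and 3.25 to 4.66 CPM in fasted livers. Lrat lost its call without mouse 277, 290 or 295 (adjusted p = 0.0547 to 0.0762). Of the other stellate markers, Dcn, which held most of the sum, was at 127 to 190 CPM fed and 139 to 143 CPM fasted, and Hand2 at 4.45 to 5.49 CPM fed and 4.75 to 6.99 CPM fasted. In both the groups overlapped and the change was not called. The 7 endothelial markers summed to 215 to 258 CPM in fed and 145 to 181 CPM in fasted livers, with 2 called lower. Of these markers, Stab2, Lyve1, Pecam1 and Kdr overlapped between the groups, and Clec4g, Oit3 and Fcgr2b did not. The 6 cholangiocyte markers summed to 34.6 to 39.3 CPM in fed and 14.3 to 27.8 CPM in fasted livers, with 1 called lower. Spp1 held most of these counts and was not called. It passed the test without mouse 295 (adjusted p = 0.0185). Epcam (0.915 to 1.40 CPM fed, 0.781 to 1.46 CPM fasted), Krt19, Krt7 and Cftr overlapped, and Spp1 and Sox9 did not. The stellate, endothelial and cholangiocyte sums each had a two-sided exact permutation p of 0.1, the smallest that 3 mice against 3 allow. The stellate sums overlap after TMM scaling. The part of these cells in the fall of the matrix genes was not tested.

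**Figure D4:**
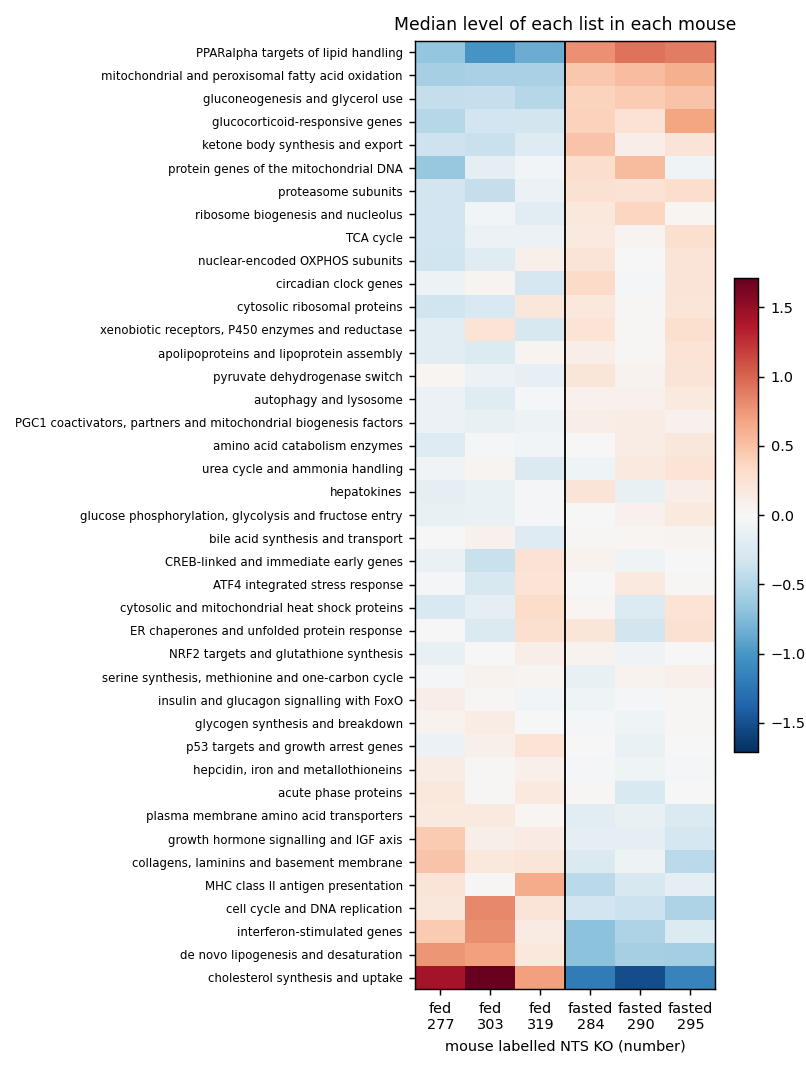
Median over the tested members of each list of log2 CPM, centred for each gene on its mean over the 6 mice labelled NTS KO, in each fed (left of the line) and fasted (right) mouse. Blue is below and red above the mean. Cholesterol genes ran from 0.70 to 1.71 in the fed and from -1.52 to -1.15 in the fasted mice, and in fed mouse 319 ribosomal proteins stood at 0.20 against -0.35 and -0.26 in the other fed mice.

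The fasting change was set beside that of the NTS WT-labelled littermates, which share no library with it. Which of the 2 genotypes each set belongs to rests on the labels that the Nts counts go against. In livers labelled NTS WT, 1231 genes were called higher (8.91% of genes tested) and 1270 lower (9.19%). Called in both genotypes were 1481 genes, 63.7% of the NTS KO calls and 59.2% of the NTS WT calls, and all 1481 moved the same way. Across the 13812 genes the log2 changes of the genotypes correlated at r = 0.698, a description over genes. Of the 845 genes called in livers labelled NTS KO alone, 798 had the same sign in livers labelled NTS WT. The difference between the fasting changes was called for 0 genes in edgeR (0% of those tested), with 663 (4.80%) at an unadjusted p under 0.05, and for 3 genes in DESeq2, also with 663 under 0.05.

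The 3 genes with the smallest p for that difference were Nr1i3, Gm26675 and Wfdc17. Nr1i3 had a log2 change of 1.67 in livers labelled NTS KO and 0.49 in those labelled NTS WT, a difference of 1.18 ± 0.21 (SE) with an unadjusted p of 6.43e-05 and an adjusted p of 0.888. DESeq2 called it with an adjusted p of 0.000389. Mice labelled NTS WT had 191, 148 and 139.5 CPM fed and 229.9, 226 and 219 CPM fasted. Wfdc17, a small secreted protein, had changes of -0.18 and -1.32, with 10.7, 7.85 and 10.7 CPM in fed and 8.75, 10.3 and 7.02 CPM in fasted livers labelled NTS KO (adjusted p of the difference = 0.897). DESeq2 also called Gm26675, whose values are given in the closing section, and Arl4d (difference 1.69, adjusted p = 0.0299), which was named after its value was seen. Without WT fed mouse 323, edgeR called 1 gene, Gm44002 (adjusted p = 0.00797).

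**Figure D5:**
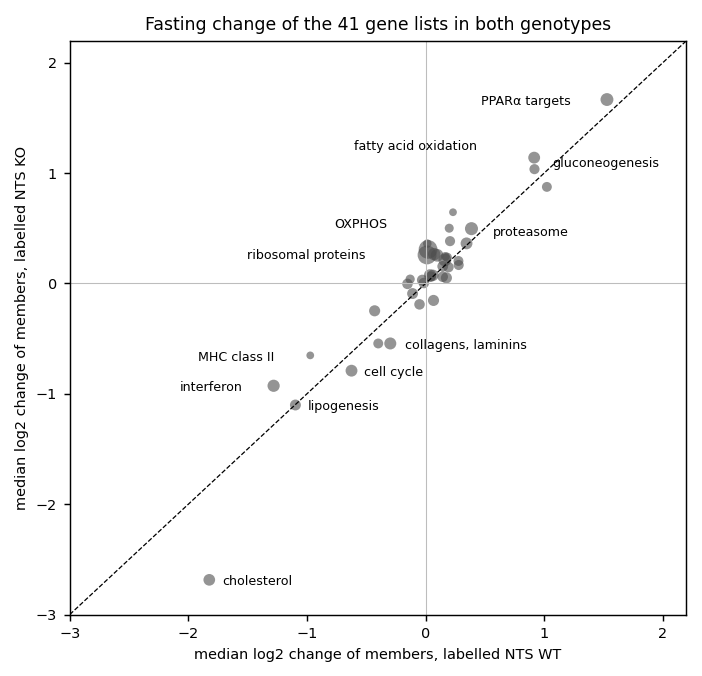
Median log2 fasting change of the tested members of each of the 41 lists in livers labelled NTS WT (horizontal axis) and NTS KO (vertical axis), with point area by the number of members and equal medians on the dashed line. Cholesterol genes lie at -1.82 and -2.69, PPARα targets at 1.53 and 1.67 and interferon-stimulated genes at -1.28 and -0.93.

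List by list, the medians had the same sign in both genotypes for 37 of 41 lists. The cholesterol list had a median of -2.69 in livers labelled NTS KO and -1.82 in those labelled NTS WT, with 23 and 21 members called lower, and 8 of its 26 members had an unadjusted p under 0.05 for the difference, as had 4.80% of all genes tested. Lss was among them, with a difference of -1.25 on the log2 scale (adjusted p = 0.897). The 77 OXPHOS subunits had medians of 0.31 and 0.02, with 4 and 1 called higher, 1 and 4 called lower and 14 under that p. The 78 ribosomal proteins had medians of 0.26 and 0.01, with 2 and 0 called higher, 0 and 1 called lower and 12 under that p. Medians of both lists stood higher in fed mouse 319 than in the other fed mice labelled NTS KO, and calls on them changed with single mice. Their members are not independent of each other. The proteasome had medians of 0.50 and 0.39, with 29 and 17 members called higher and 1 under that p. Interferon-stimulated genes had medians of -0.93 and -1.28, with 22 and 25 called lower and 4 under that p. Fatty acid oxidation genes had medians of 1.14 and 0.92, with 3 under that p, and PPARα targets of 1.67 and 1.53, with 1. None of these members passed the adjusted test of the difference.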

How the data were processed

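Liver RNA was sequenced from 12 mice, 3 in each of 4 groups, and the deposited table holds RSEM expected counts per gene, which the authors did not normalize. The submitters' processing notes name Trimmomatic, RSEM and GRCm38, with versions that were not given in the sources used here. RSEM divides reads that fit several genes among them, so values of near-identical genes carry more error than counting alone gives.

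Expected counts were rounded to whole counts. Genes with low counts were removed with filterByExpr, libraries were scaled by TMM, and fasted mice were compared with fed mice in 1 fit of 4 group means over all 12 mice (edgeR 4.0.16 in R 4.3.3, robust quasi-likelihood F test). P-values were adjusted by Benjamini-Hochberg over all 13812 genes tested, and an adjusted p under 0.05 is a call. Each group had 3 mice. The error of every edgeR test is their spread within all 4 groups, those labelled NTS WT included, drawn toward that of other genes. Each SE given is the size of the log2 change divided by the square root of its F statistic, and is not a spread of mice. Fold changes given beside a log2 change are that same fitted change. Intervals set by counts alone would cover counting error only.

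The comparison and the gene lists were chosen with earlier results of these data known. Named genes were the 10 with the highest and the 10 with the lowest log2 change among called genes of at least 1 CPM on average, key genes of each list, up to 3 further called genes per list and direction by p, the 3 genes with the smallest p for the genotype difference, and Nts. Some genes named by this rule are not reported here. Genes outside this rule (Ttr, Rbp4, Acat2, Ldha, Txnip, Arl4d, Gm44002 and the cell type markers) were named after their values were seen. Marker sums, and the values of single markers given beside them, are in CPM of library totals.

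In a test on simulated data for the fasting change in livers labelled NTS KO (13638 genes, 3 mice a group), 93 of 100 genes changed 4-fold and 61 of 100 changed 2-fold were called, with 11 calls among 13438 unchanged genes. The changed genes were drawn from those with a mean above 1 CPM, so these rates do not cover genes below it. All 4 groups had the same baseline, and far fewer genes were changed than were called in the livers. Alternatives were DESeq2 1.42.0, other scalings, other filters and thresholds, fits of 1 genotype alone, leaving out each mouse, and a shorter promoter window. Promoter sequences came from RefSeq, and read-level data were not used here.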

Additional observations from a re-analysis of the deposited data

Results flagged for a closer look

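Gm26675, a gene model without a known role, was picked out because the fasting change went in opposite directions in the 2 genotypes without overlap between libraries. In livers labelled NTS KO it was at 0, 0 and 0.0403 CPM fed and 0.0458, 1.08 and 1.37 CPM fasted. In livers labelled NTS WT it was at 0.0369, 0.184 and 0.754 CPM fed and 0, 0 and 0.0271 CPM fasted. The difference of the changes was 10.14 on the log2 scale, a size that depends on the prior count, since several libraries held 0 or 1 count. Its unadjusted p was 0.000495 in edgeR and its adjusted p 0.897, while DESeq2 gave an adjusted p of 0.0188.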

How the results depend on the processing

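The direction was kept for all 194 named genes that were called, in every alternative run, and 96 of them kept their call in every alternative. A 2-fold minimum left 915 calls in livers labelled NTS KO (334 higher, 581 lower), 911 in livers labelled NTS WT (356 and 555), 170 among the list genes and 122 among the genes named by the rule. An adjusted p under 0.10 gave 1609 genes higher in livers labelled NTS KO. DESeq2 called 3 genes for the genotype difference. Scaling by library totals gave 576 higher and 2171 lower. In a fit of the 6 mice labelled NTS KO alone 1970 genes were called, 904 higher and 1066 lower. Leaving out 1 mouse gave 1358 to 2631 calls in livers labelled NTS KO (633 to 1215 higher, 723 to 1416 lower), 1224 to 2418 in livers labelled NTS WT (628 to 1232 higher, 596 to 1186 lower) and 0 or 1 for the difference. In livers labelled NTS WT the low counts were those without fed mouse 254 (1326) or 257 (1596) or fasted mouse 282 (1224). The sterol element was found in 4.09% of promoters of genes called lower within 200 bases before the start. The cause of these shifts was not tested. No paired analysis was possible because the mouse numbers of the groups share none with each other.

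Among the named genes that were not called, 15 changed sign in at least 1 alternative, and without 1 mouse their log2 changes ran as follows: Asns -0.43 to 1.46, Crem -0.23 to 0.0933, Dcn -0.13 to 0.11 (0.00663 and 0.00624 with other settings), Hsph1 -0.32 to 0.41 (-0.00921 and -0.13 with other settings), Insr -0.21 to 0.0206, Nr0b2 -0.32 to 0.56 (-0.0681 with other settings), Phgdh -0.0741 to 1.02, Rplp0 -0.00887 to 0.32, Saa1 -0.24 to 0.19, Sdha -0.10 to 0.0541, Sds -0.61 to 0.23, Slc38a2 -0.0138 to 0.50, Tfeb -0.0499 to 0.20 (-0.12 with other settings), Tsc22d3 -0.17 to 0.23 (0.00863, 0.00848 and 0.00268 with other settings) and Xbp1 -0.0525 to 0.21 (-0.11 with other settings). With 3 mice a group, a change of 2-fold can be missed, so a gene without a call is not shown to be unchanged.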
